A study of Mus musculus with 6 samples.

Results

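The methionine cycle and its methyltransferases were followed in mouse liver through 9 genes, Mat1a, Mat2a, Ahcy, Gnmt, Bhmt, Bhmt2, Cbs, Cth and Inmt, of 55471 genes counted. All 9 were found by symbol, and all 9 had enough counts to be tested. The genes were chosen by name as a pathway after the changes in counts from the 4 h to the 16 h fast were known, so their own differences between the groups are given as a description without p-values. The livers came from male wild-type C57BL/6J mice, an inbred laboratory strain. A 4 h fast preceded sampling in 3 mice and a 16 h fast in the other 3, and the labels list no transgene or drug in either group. The labels state neither age nor diet nor the hour of sampling. RNA was sequenced from 1 library per mouse, and the series as a whole concerns cholesterol transport in the liver.

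In the methionine cycle, methionine is joined to ATP to form S-adenosylmethionine (SAM), the methyl donor of most methylation reactions. Each methyl transfer leaves S-adenosylhomocysteine, which is split to homocysteine. Homocysteine is either methylated back to methionine or led through cystathionine to cysteine. The liver holds most of this traffic, since hepatocytes express a SAM synthetase of their own (Mat1a) and a betaine-dependent route back to methionine (Bhmt).

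The starts of 3 genes are shown, Inmt with the largest lowering and the neighbours Bhmt and Bhmt2, both higher after the long fast. Bhmt2 stands apart in G and C there, at 73.7%, against 48% in Bhmt and 47.7% in Inmt. Bhmt and Bhmt2 lie next to each other on the minus strand of chromosome 13, with 17758 bases between them, and Inmt lies on the minus strand of chromosome 6. The windows are RefSeq promoters of GRCm38.p6, 250 bases before to 50 after the RefSeq start, read 5′ to 3′ along the gene, with CG dinucleotides and the TATA box letters TATAAA in capitals. For Bhmt2 this is also the GENCODE M21 start, at 93674302. For Bhmt and Inmt the GENCODE M21 start lies further upstream, at 93637961 and 55175043. Most of the Bhmt window thus lies inside the gene as annotated there, and the windows of the neighbours are not like regions.
Bhmt, chr13:93637709-93638008: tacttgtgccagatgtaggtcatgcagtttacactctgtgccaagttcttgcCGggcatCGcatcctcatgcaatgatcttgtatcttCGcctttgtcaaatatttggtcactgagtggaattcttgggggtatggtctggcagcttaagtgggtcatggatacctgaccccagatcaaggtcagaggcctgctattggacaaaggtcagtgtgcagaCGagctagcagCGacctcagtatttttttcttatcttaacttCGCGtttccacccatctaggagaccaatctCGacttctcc
Bhmt2, chr13:93674253-93674552: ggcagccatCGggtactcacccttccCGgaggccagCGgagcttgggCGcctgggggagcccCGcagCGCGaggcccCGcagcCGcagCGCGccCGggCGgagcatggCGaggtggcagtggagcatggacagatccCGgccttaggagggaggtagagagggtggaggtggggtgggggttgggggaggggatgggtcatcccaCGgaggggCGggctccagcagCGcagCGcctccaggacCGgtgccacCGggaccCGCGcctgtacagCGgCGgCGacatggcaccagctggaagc
Inmt, chr6:55174941-55175240: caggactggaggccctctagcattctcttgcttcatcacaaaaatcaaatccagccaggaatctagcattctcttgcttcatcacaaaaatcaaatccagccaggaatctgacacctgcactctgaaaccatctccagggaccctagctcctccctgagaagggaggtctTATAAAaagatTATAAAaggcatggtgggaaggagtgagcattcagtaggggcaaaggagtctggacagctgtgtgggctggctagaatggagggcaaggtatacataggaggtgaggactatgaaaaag

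The Bhmt window holds 8 CG dinucleotides at 48% G and C, near the medians of 7 and 52.7% over all 32851 promoter windows. The Bhmt2 window holds 26 at 73.7%, and the Inmt window none at 47.7%. TATAAA begins 80 and 69 bases before the RefSeq start of Inmt, and is nearer to its GENCODE M21 start at 55175043. The Inmt window also carries a stretch of 46 bases that is repeated without a gap, from position 16 and again from position 62 of the window, and 0.25% of all windows hold a direct repeat as long. Windows were found for 7 of the 9 genes, and none for Mat1a and Cth. Among the 7, TATAAA on either strand was present in Inmt and Mat2a (13.6% of all windows) and the E-box CACGTG in Cbs (7.15%). No match was found in the 7 windows, again on either strand, for the cAMP response element TGACGTCA (1.79% of all windows), the core TGATGCAA of C/EBP and ATF sites (0.895%), the forkhead element GTAAACA (3.65%), the nuclear receptor repeat of AGGTCA and AGGTCA with 1 base between them (0.0396%) or the glucocorticoid receptor palindrome of AGAACA and TGTTCT with 3 bases between them (0.00913%). The matches that were found do not overlap each other. A match describes letters only and was not tested for binding.

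Library depth ran from 15173653 to 26572532 counts assigned to genes, and each of the 9 genes had at least 1261 counts in each library. In markers, given as CPM, a library's counts scaled by its plain total, hepatocyte genes (Alb the most abundant) summed to 86588 to 98545 after 4 h and 81971 to 89665 after 16 h, with 7 of the 8 listed found by symbol. Single hepatocyte markers were not steady: of the 7, 2 rose and 2 fell at an edgeR adjusted p under 0.05. Replicate 3 of the 4 h fast stood apart, with 187 CPM summed over 12 of 12 lung markers against 6.19 to 9.24 in the other 5 libraries, and 92.4 CPM of the airway secretory gene Scgb1a1 against at most 0.962. Neutrophil markers (10 of 10 with a count in some library, Csf3r the most abundant over all libraries) summed to 17.2 CPM there, with Camp at 0, against 2.52 to 5.41 elsewhere. Red blood cell markers (6 of 6 with a count, led by Alas2) came to 144 to 179 CPM after 4 h and 55.0 to 96.9 after 16 h. Of these, Alas2 alone made 93.8 to 106 and 43.9 to 49.6. The groups overlapped for the globin genes Hba-a1, Hba-a2, Hbb-bs and Hbb-bt, and none of them passed the threshold. Pancreas markers (4 of 7, with Amy2a2, Pnlip and Prss2 at 0) came to 18.3 to 28 CPM after 4 h and 5.44 to 8.24 after 16 h, of which Cela1 alone made 17.7 to 27.5 and 5.12 to 7.83, T and B cell markers (8 of 8, led by Cd4) to 4.74 to 6.44 and 2.30 to 3.28, and fat markers (5 of 6, with Lep at 0 and Fabp4 leading) to 9.16 to 13.5 and 5.47 to 8.57. Of the fat markers, Cfd fell (-2.67, edgeR adjusted p = 0.0201), while the groups overlapped for Fabp4, which did not pass. The sums of the other lists overlapped between the groups, though 4 single markers fell, Col1a1 and Col3a1 of stellate cells and fibroblasts (-1.46 and -1.70), Timd4 of Kupffer cells (-0.86) and Tek of endothelium (-0.61), at edgeR adjusted p-values of 0.00373, 0.00392, 0.0354 and 0.0370. They were 104 to 171 and 94.3 to 120 CPM for Kupffer cells and macrophages (8 of 8, led by Clec4f), 143 to 165 and 134 to 179 for endothelium (8 of 8, led by Eng), 193 to 305 and 142 to 232 for stellate cells and fibroblasts (9 of 9, led by Dcn), and 60.8 to 80.7 and 54.3 to 67.0 for cholangiocytes (7 of 7, led by Spp1). The part of these differences in the results was not tested. In bulk liver, fewer cells of a type and less RNA per cell cannot be told apart.

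Across the 9 genes, 5 were higher after 16 h (Mat1a, Bhmt, Ahcy, Cth and Bhmt2), 1 was lower (Inmt), and Gnmt, Cbs and Mat2a had overlapping groups. Together the genes took 0.853%, 0.950% and 0.932% of gene counts in replicates 1, 2 and 3 of the 4 h fast, and 2.07%, 1.91% and 2.52% in those of the 16 h fast. The lowest share after the long fast was thus above the highest after the short one. In the edgeR fit the same 5 passed the threshold for higher and Inmt for lower, 6 of 9, where 18.7% of the 13812 tested genes passed in either direction, 9.17% for higher and 9.51% for lower. Groups did not overlap for these 6, as for 39.4% of tested genes, 19.7% with the 16 h libraries higher and 19.7% with them lower. The median log2 change was 0.74 over the 9 and -0.028 over all tested genes. As the list was chosen with this contrast known, nothing is read from these counts.

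**Figure D1:**
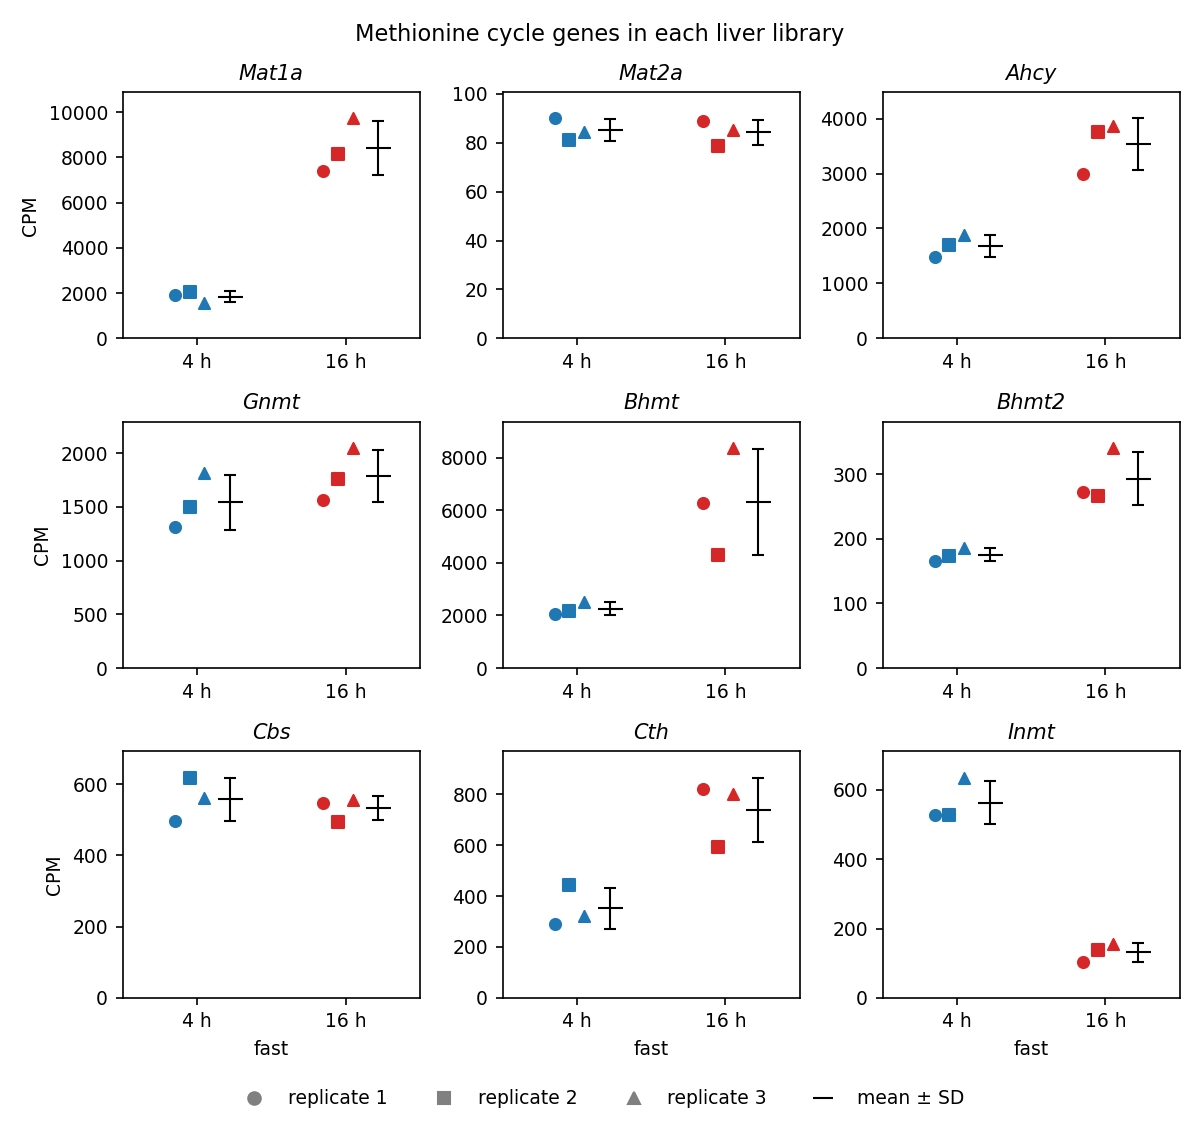
CPM (normalised read count, scaled by TMM factors) (vertical axis, starting at 0, 1 panel per gene) in the 3 libraries of the 4 h fast (blue) and the 3 of the 16 h fast (red), with the mean and SD of each group in black. Mat1a lies between 1581 and 2051 CPM after 4 h and between 7405 and 9724 after 16 h, Inmt moves the other way, and the groups of Mat2a, Gnmt and Cbs overlap.

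The SAM synthetases came first in the cycle. Mat1a (ENSMUSG00000037798) encodes the catalytic subunit of the liver enzyme and lies on chromosome 14 at 41105035 to 41124412 of GRCm38, plus strand. It was at 1911, 2051 and 1581 CPM in replicates 1, 2 and 3 of the 4 h fast and at 7405, 8150 and 9724 CPM in those of the 16 h fast. Every 16 h library was above every 4 h library by a wide margin, and the 4 h library with lung transcripts was the lowest of all. The means were 1848 ± 241 and 8426 ± 1184 CPM (SD, n = 3 each), a log2 change of 2.19 ± 0.15 (SE) or 4.56-fold. Without single libraries the log2 change stayed between 2.08 and 2.29. No exon base of Mat1a overlaps another annotated gene, and no stretch of 50 bases of its protein-coding transcripts occurs in a transcript of another gene.

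Mat2a (ENSMUSG00000053907) encodes the form found in most tissues outside the liver and in dividing liver cells, and lies on chromosome 6 at 72432799 to 72439558, minus strand. It was at 89.9, 81.2 and 84.3 CPM after 4 h and at 89.0, 78.6 and 85.0 CPM after 16 h. The groups overlapped almost fully. The log2 change was -0.02 ± 0.10, between -0.05 and 0.04 without single libraries. Of its exon bases, 11.3% lie under Particl, a gene on the opposite strand, whose reads cannot be told apart where the strand setting is unknown, and Particl itself was at 0.896 and 0.910 CPM. Per kilobase of exon, Mat1a exceeded Mat2a 27.5-, 32.7- and 24.3-fold in the 4 h libraries and 108-, 134- and 148-fold in the 16 h libraries.

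Gnmt and Inmt both pass the methyl group of SAM to a small molecule. Gnmt (ENSMUSG00000002769), glycine N-methyltransferase, turns glycine into sarcosine, is abundant in hepatocytes and is regarded as a brake on SAM levels. It lies on chromosome 17 at 46725664 to 46729168, minus strand. Its values were 1311, 1503 and 1814 CPM after 4 h and 1561, 1758 and 2046 CPM after 16 h. The groups overlapped, with the highest 4 h value coming from replicate 3, the library with lung transcripts. The log2 change was 0.21 ± 0.15. It was 0.36 without that library and 0.11 without 16 h replicate 3, the ends of its range without single libraries.

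Inmt (ENSMUSG00000003477), indolethylamine N-methyltransferase, methylates tryptamine and other amines, is also known for its expression in lung, and lies on chromosome 6 at 55170626 to 55175043, minus strand. It was at 527, 528 and 635 CPM after 4 h and at 102, 138 and 155 CPM after 16 h. Every 16 h library was far below every 4 h library. The means were 564 ± 62.2 and 132 ± 26.9 CPM (SD, n = 3 each), a log2 change of -2.10 ± 0.16, or 4.28-fold lower. The highest value came from the 4 h library with lung transcripts, and without that library the log2 change was -1.99. It stayed between -2.23 and -1.93 without single libraries. In size it was close to the change of Mat1a but with the opposite sign. The ratio of Gnmt to Inmt per kilobase was 3.30, 3.78 and 3.79 in the 4 h libraries and 20.3, 16.9 and 17.6 in the 16 h libraries.

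Ahcy (ENSMUSG00000027597) encodes S-adenosylhomocysteine hydrolase, which removes the inhibitory product of methyl transfer, and lies on chromosome 2 at 155059310 to 155074497, minus strand. It was at 1475, 1699 and 1879 CPM after 4 h and at 2998, 3749 and 3857 CPM after 16 h. The groups were well apart. The means were 1684 ± 202 and 3534 ± 468 CPM (SD, n = 3 each), with a log2 change of 1.07 ± 0.14, or 2.10-fold, and between 1.0 and 1.19 without single libraries. Its value is uncertain because 75.6% of the 50-base stretches of its protein-coding transcripts also occur in other transcripts. Those of the copies Gm4737 and Gm9826 are among them. Counts at Gm4737 were 0.735% to 1.18% of those at Ahcy in a library, and at Gm9826 0.152% to 0.374%. Gm4737 averaged 15.6 CPM after 4 h and 33.3 after 16 h.

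Bhmt and Bhmt2 return methyl groups to homocysteine. Bhmt (ENSMUSG00000074768) takes them from betaine, a product of choline, and lies at 93616675 to 93637961 of chromosome 13, minus strand. Its CPM values were 2061, 2189 and 2521 after 4 h and 6263, 4313 and 8362 after 16 h. The lowest 16 h value, in replicate 2, was still above the highest 4 h value, but the 16 h libraries were spread widely. Their coefficient of variation was 32.1%, against 10.5% among the 4 h libraries and a median of 6.41% over 1377 genes of at least 100 CPM after 16 h. The means were 2257 ± 237 and 6312 ± 2025 CPM (SD, n = 3 each), with a log2 change of 1.48 ± 0.21, or 2.80-fold, and between 1.23 and 1.70 without single libraries. Of the 50-base stretches of its protein-coding transcripts, 61.5% also occur in other transcripts, among them those of the copies Gm5096 and Bhmt-ps1. Counts at Gm5096 were 0.646% to 1.19% of those at Bhmt and at Bhmt-ps1 0.0712% to 0.151%, so the value of Bhmt is uncertain as well.

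Bhmt2 (ENSMUSG00000042118), whose enzyme uses S-methylmethionine as its methyl donor, lies at 93655720 to 93674302 of chromosome 13, minus strand. It was at 166, 173 and 186 CPM after 4 h and at 272, 266 and 340 CPM after 16 h. The groups were apart, and the highest value again came from 16 h replicate 3. The means were 175 ± 10 and 292 ± 41.0 CPM (SD, n = 3 each), a log2 change of 0.74 ± 0.12 or 1.67-fold, between 0.62 and 0.81 without single libraries. Per kilobase, Bhmt exceeded its neighbour 5.33-, 5.41- and 5.82-fold after 4 h, and 9.87-, 6.95- and 10.6-fold after 16 h. Replicate 2 of the 16 h fast, with the lowest Bhmt, thus also had the lowest 16 h ratio.

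Cbs and Cth lead homocysteine to cysteine. Cbs (ENSMUSG00000024039), cystathionine beta-synthase, takes the first step and lies on chromosome 17 at 31608894 to 31637238, minus strand. It was at 496, 616 and 560 CPM after 4 h and at 547, 494 and 555 CPM after 16 h, which overlap. The log2 change was -0.07 ± 0.12, between -0.13 and 0.03 without single libraries. Cth (ENSMUSG00000028179), cystathionine gamma-lyase, takes the second step and lies on chromosome 3 at 157894248 to 157925077, minus strand. It was at 290, 442 and 323 CPM after 4 h and at 820, 592 and 801 CPM after 16 h. The groups did not overlap, and the nearest libraries were replicate 2 of each. The means were 351 ± 80.4 and 738 ± 127 CPM (SD, n = 3 each), a log2 change of 1.07 ± 0.18 or 2.10-fold, between 0.96 and 1.29 without single libraries. The ratio of Cbs to Cth per kilobase was 0.639, 0.519 and 0.647 after 4 h and 0.249, 0.311 and 0.258 after 16 h.

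**Figure D2:**
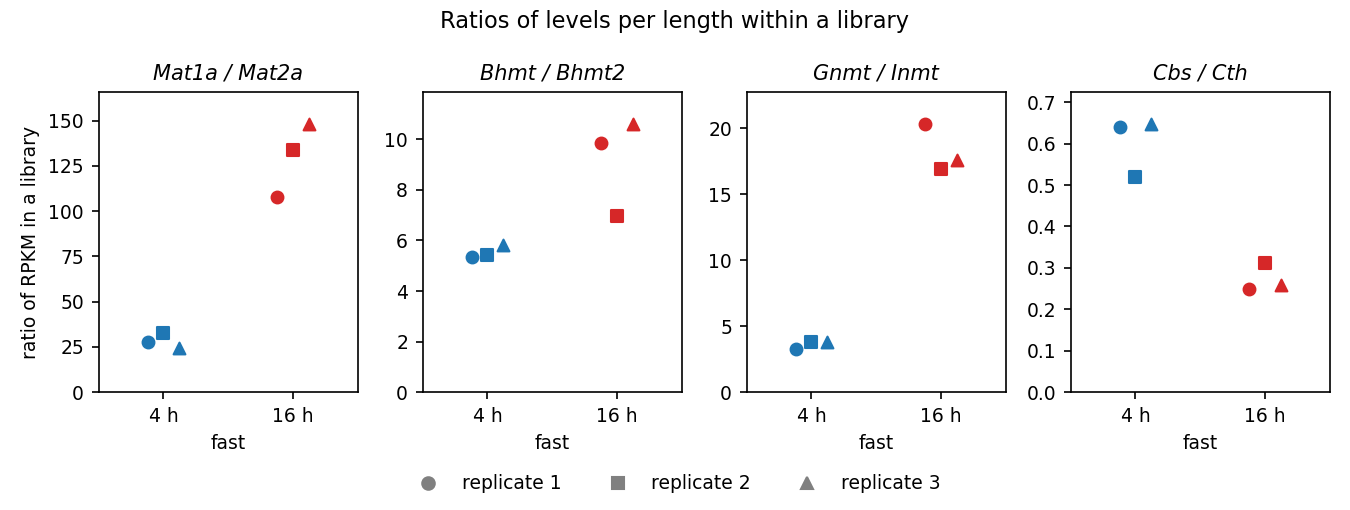
Ratio of CPM per kilobase of exon of the gene pairs named above the panels, on axes starting at 0, in each library of the 4 h (blue) and 16 h (red) fast. The ratio of Mat1a to Mat2a goes from 24.3 to 32.7 after 4 h to 108 to 148 after 16 h, and that of Cbs to Cth from 0.519 to 0.647 to 0.249 to 0.311.

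Levels of different genes were compared per length, as RPKM, CPM per kilobase of merged exons. After 4 h the order was Gnmt (1279 ± 210 RPKM), Ahcy (600 ± 72.0), Mat1a (533 ± 69.5), Bhmt (392 ± 41.2), Inmt (352 ± 38.9), Cth (126 ± 28.8), Cbs (74.5 ± 8.0), Bhmt2 (70.9 ± 4.07) and Mat2a (19.0 ± 0.984; SD, n = 3). Neighbours overlapped for Ahcy and Mat1a, Bhmt and Inmt, and Cbs and Bhmt2. After 16 h it was Mat1a (2430 ± 341 RPKM), Gnmt (1483 ± 203), Ahcy (1260 ± 167), Bhmt (1096 ± 352), Cth (264 ± 45.4), Bhmt2 (119 ± 16.6), Inmt (82.3 ± 16.8), Cbs (71.1 ± 4.44) and Mat2a (18.8 ± 1.17). The libraries of Gnmt and Ahcy, of Ahcy and Bhmt, and of Inmt and Cbs overlapped. The places of Ahcy and Bhmt in both orders are uncertain, as 75.6% and 61.5% of their 50-base stretches also occur in other transcripts. Mat1a went from rank 86 to rank 25 among all genes by mean RPKM, and Inmt from rank 129 to rank 509. With the longest transcript as the length, Bhmt (569 RPKM) came before Mat1a (533) after 4 h and before Ahcy after 16 h (1593 and 1390), and Inmt (122) before Bhmt2 (119) after 16 h.

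**Figure D3:**
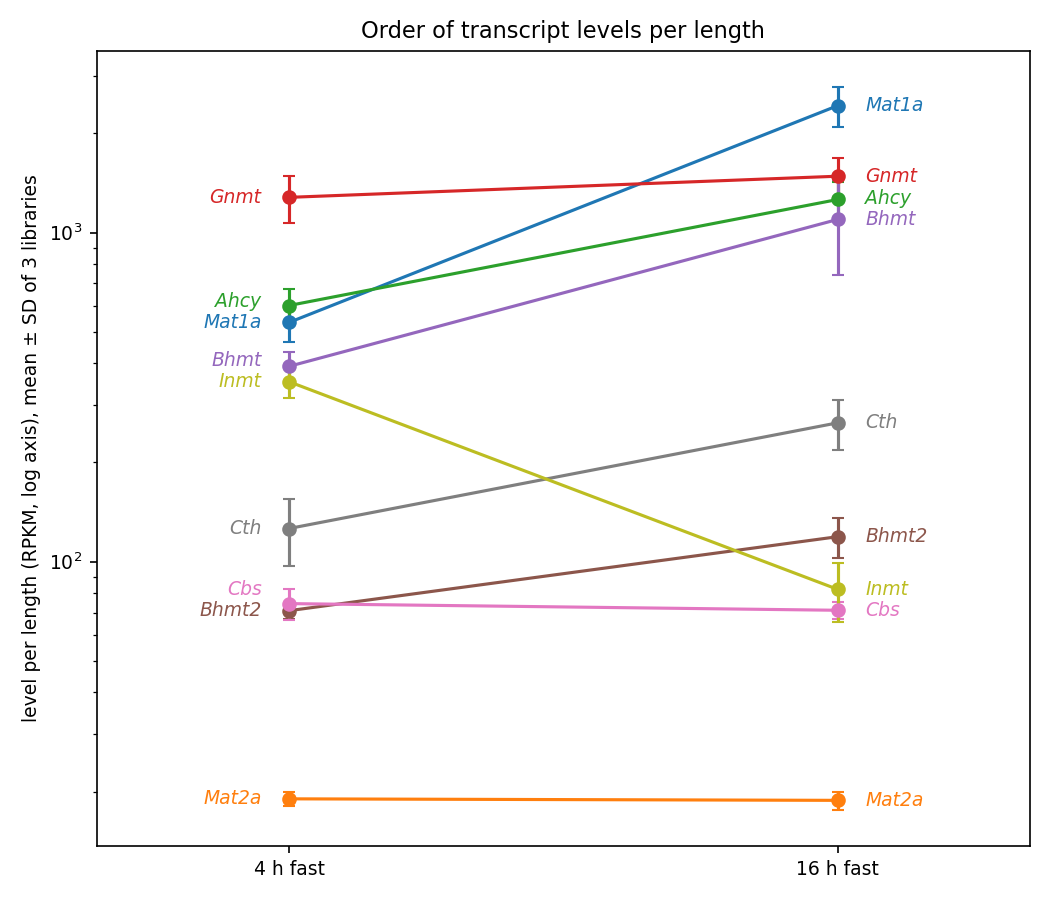
Mean RPKM with SD (vertical log axis, n = 3 libraries) of each gene after the 4 h and the 16 h fast, joined by a line per gene. Mat1a goes from the third to the first place, at 2430 RPKM, while Inmt drops from 352 to 82.3 RPKM and Mat2a stays last in both groups.

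The genes whose pattern over the 6 libraries was most like each member with a log2 change of at least 1 in size were found by the root mean square difference of centred log2 CPM, among 7623 other genes of at least 10 CPM. For Inmt the nearest was Gamt, guanidinoacetate N-methyltransferase (difference 0.213, log2 change -1.93), followed by Slc22a7, an organic anion transporter (0.214), and Serpina6, corticosteroid-binding globulin (0.245). For Mat1a they were Asic5, an ion channel gene (0.164), Retsat, retinol saturase (0.202), and Gm43314 (0.208). Ahcy was nearest to Serinc2 (0.099), the glycerol phosphate acyltransferase gene Gpat4 (0.10) and the gluconeogenic gene Pck1 (0.124). Cth was nearest to the kinase gene Sgk1 (0.149), Tln2 (0.176) and Acnat1 (0.194), and Bhmt to the fatty acid transport gene Slc27a1 (0.208), Sgk1 (0.221) and Chrna2 (0.231). Because only members with a large change entered, much of each pattern is the difference between the 2 fasts. Genes with a change of similar size are therefore near by construction, and shared regulation was not tested.

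The wider pathway was read from 93 further genes in 6 lists, of which 90 had enough counts. In the edgeR fit 14 rose, 11 fell and 65 did not pass, so that 27.8% passed against 18.7% of all tested genes, and their median log2 change was 0.04. Of these 25 genes, 11 passed in each fit that left out 1 library. Without 16 h replicate 1, 10 rose and 6 fell, without 16 h replicate 2, 9 and 7, and without 16 h replicate 3, 7 and 7. The lists were chosen with earlier results of these data known, so nothing is read from their share against that of all tested genes. Adjusted p-values below are from edgeR's quasi-likelihood test with Benjamini-Hochberg adjustment over all tested genes.

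**Figure D4:**
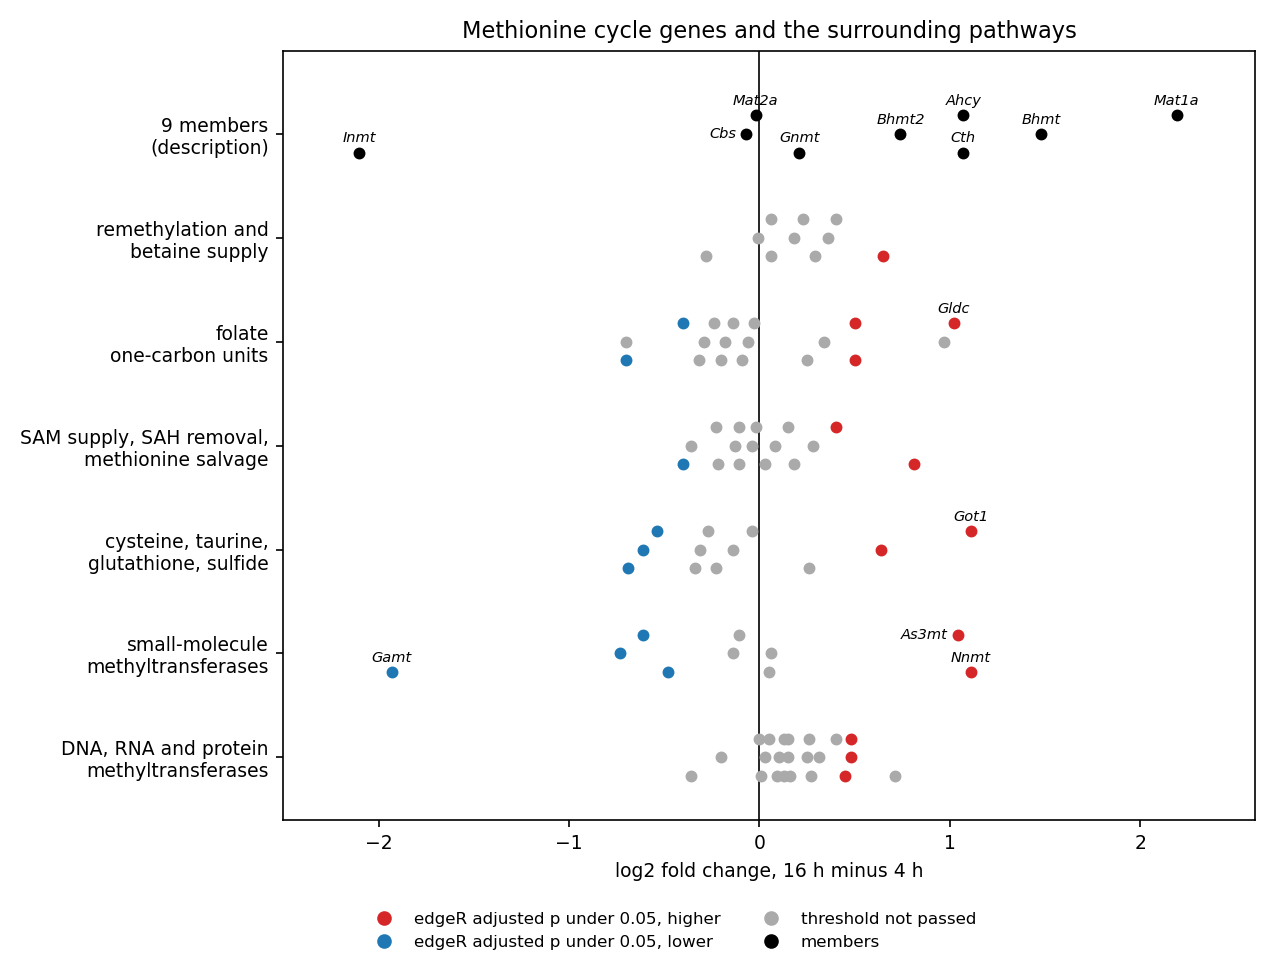
Log2 fold change (16 h minus 4 h, horizontal axis) of the 9 members in black and of tested genes in 6 pathway lists, without those not reported here, coloured where the edgeR adjusted p was under 0.05. Among the small-molecule methyltransferases Gamt lies far to the left and Nnmt and As3mt to the right, and the DNA, RNA and protein methyltransferases lie within 1 of 0.

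Small-molecule methyltransferases, which use SAM as Gnmt and Inmt do, included 2 risers and 5 fallers among 11 tested genes, the other 4 not passing (median -0.14, 63.6% passing). Gamt, which makes creatine, fell from 205, 192 and 256 CPM to 55.0, 47.4 and 69.3 CPM (-1.93 ± 0.16, edgeR adjusted p = 2.72e-05). Nnmt, the nicotinamide methyltransferase of the same enzyme family as Inmt, rose from 70.1, 136 and 142 CPM to 208, 243 and 301 CPM (1.11 ± 0.26, edgeR adjusted p = 0.0233). Leaving out 4 h replicate 3 or 16 h replicate 3 ended the call at log2 changes of 1.30 and 0.96 (edgeR adjusted p = 0.110 and 0.0642), and without the latter 1 gene of the list rose. Pemt, which makes phosphatidylcholine and uses much of the liver's SAM, fell from 287 ± 41.6 to 206 ± 8.89 CPM (-0.48 ± 0.12, edgeR adjusted p = 0.0191). Without 16 h replicate 1, 2 or 3 its log2 change was about as large (-0.43, -0.49 and -0.50) but missed the threshold (edgeR adjusted p = 0.0850, 0.0724 and 0.0654). As3mt, the arsenite methyltransferase, picked after its values were seen, rose from 44.0 ± 2.41 to 90.3 ± 1.71 CPM (1.04 ± 0.10, edgeR adjusted p = 6.07e-05). Mettl7b, the most abundant of the list, was at 550 ± 138 and 573 ± 18 CPM (0.06 ± 0.16), and it passed without 4 h replicate 3 (0.29, edgeR adjusted p = 0.0339). Asmt and Pnmt had too few counts to be tested.

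Of 11 genes for folate-dependent remethylation and betaine supply, 2 rose, none fell and 9 did not pass (median 0.23, 18.2% passing). Mtr, the methionine synthase that depends on folate and vitamin B12, was at 9.16 ± 1.36 and 9.61 ± 1.01 CPM (0.06 ± 0.16, edgeR adjusted p = 0.812). Dmgdh, which takes up the dimethylglycine left by the Bhmt reaction, rose from 377 ± 17.7 to 592 ± 108 CPM (0.65 ± 0.14, edgeR adjusted p = 0.00789). Sardh, which oxidises sarcosine, was the most abundant of the list and did not pass (866 ± 67.9 and 901 ± 77.7 CPM). Without 4 h replicate 3, Slc44a1 fell (-0.48, edgeR adjusted p = 0.00227), a choline transporter at -0.28 with all libraries, picked after its values were seen.

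Among 18 tested genes of folate one-carbon units 3 rose, 2 fell and 13 did not pass (median -0.12, 27.8% passing). Gldc, of the glycine cleavage system, rose from 157 ± 26.9 to 318 ± 53.1 CPM (1.02 ± 0.16, edgeR adjusted p = 0.00119). Tyms, thymidylate synthase, fell from 5.72 ± 0.509 to 3.52 ± 0.484 CPM (-0.70 ± 0.19, edgeR adjusted p = 0.0234). Without 4 h replicate 2 or 16 h replicate 1 or 3 the threshold was missed at log2 changes of -0.63, -0.58 and -0.73 (edgeR adjusted p = 0.0663, 0.0962 and 0.0719). Aldh1l1, the most abundant, did not pass (1118 ± 83.4 and 897 ± 140 CPM). Fallers numbered 1 without 4 h replicate 1 or 2 or 16 h replicate 2 and 0 without 16 h replicate 1 or 3, while risers numbered 1 without 16 h replicate 3 and 5 with no filter on low counts.

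In the list of SAM supply, S-adenosylhomocysteine removal and methionine salvage, 2 of 16 rose, 1 fell and 13 did not pass (median -0.03, 18.8% passing). Ahcyl1, a relative of Ahcy that regulates calcium channels, rose from 124, 118 and 91.5 CPM to 195, 205 and 185 CPM (0.81 ± 0.13, edgeR adjusted p = 0.00140). Adi1, of methionine salvage, fell from 183 ± 10.2 to 139 ± 10.1 CPM (-0.40 ± 0.11, edgeR adjusted p = 0.0245), a call lost at log2 changes of -0.39 without 4 h replicate 1 (0.0557) and -0.37, -0.35 and -0.45 without 16 h replicate 1, 2 or 3 (0.10, 0.119 and 0.0517). Ahcyl1 was the single riser without any library except 4 h replicate 3. Adk, adenosine kinase, which removes the adenosine that Ahcy releases, did not pass (637 ± 17.3 and 708 ± 38.8 CPM, 0.15 ± 0.10).

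Downstream of Cth, in 12 genes of cysteine, taurine, glutathione and sulfide, 2 rose, 3 fell and 7 did not pass (median -0.25, 41.7% passing). Cdo1, cysteine dioxygenase, the entry to taurine, rose from 1451 ± 83.5 to 2257 ± 243 CPM (0.64 ± 0.12, edgeR adjusted p = 0.00390). Ethe1 and Sqor, enzymes of mitochondrial sulfide oxidation, fell by 0.69 ± 0.12 and 0.61 ± 0.10 on the log2 scale (edgeR adjusted p = 0.00211 and 0.00203). Got1, an aminotransferase, rose by 1.11 ± 0.28 (edgeR adjusted p = 0.0294). Without 4 h replicate 1 or 3 or 16 h replicate 2 or 3 its log2 change was 0.99, 0.94, 1.06 and 1.02 and missed the threshold (edgeR adjusted p = 0.0766, 0.153, 0.0724 and 0.0840), which left Cdo1 as the 1 riser.

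Methyltransferases of DNA, RNA and proteins had 3 of 22 that rose, none that fell and 19 that did not pass (median 0.15, 13.6% passing). Setd2, a histone H3 methyltransferase, rose from 33.9 ± 3.89 to 47.3 ± 2.01 CPM (0.48 ± 0.11, edgeR adjusted p = 0.0127). Without 16 h replicate 1 or 2 its log2 change was the same size, 0.47 and 0.48, but missed the threshold (edgeR adjusted p = 0.0526 and 0.0562). Dot1l rose by 0.48 ± 0.14 (edgeR adjusted p = 0.0310). Its log2 change stayed between 0.46 and 0.51 without 4 h replicate 2 (edgeR adjusted p = 0.0664), without 16 h replicate 1, 2 or 3 (0.0703, 0.0992 and 0.104) and with plain library totals (0.0526), where it missed the threshold. Risers numbered 0, 1 and 1 without 16 h replicates 1, 2 and 3 and 1 with plain library totals, and 1 gene, the DNA methyltransferase Dnmt3a, picked after its values were seen, fell without 4 h replicate 3 (edgeR adjusted p = 0.0315). Kmt2d, the most abundant, was at 94.2 ± 11.4 and 94.8 ± 3.32 CPM.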

How the data were processed

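Per the series' design text and the submitters' processing notes, reads were trimmed with Trimmomatic, aligned with STAR to GRCm38 (mm10) and counted per gene with HTSeq; the sources used here name neither tool versions nor the annotation release nor the strand setting. The authors deposited whole-number counts, 1 table per library. The summary lines, with 6.44% to 7.14% of tallied reads outside genes and 5.78% to 6.59% ambiguous, stayed out of library sizes. Symbols, positions and exon lengths came from GENCODE M21, in which 55230 of 55471 identifiers (99.57%) were found.

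Genes passing filterByExpr (13812, with 99.88% of counts) were fitted in edgeR 4.0.16 (R 4.3.3) with TMM factors, a robust quasi-likelihood model and the fast as its term, tested 2-sided and adjusted over all tested genes with a threshold of 0.05. The biological coefficient of variation was 14.3%. The script was tested on simulated data. CPM and RPKM use TMM-scaled totals, except for markers. DESeq2 1.42.0 served as an alternative, beside other scalings, no filter, left-out libraries and a replicate block. Replicates differed beyond sampling noise (chi-square per degree of freedom 17.3 to 68.5 over genes of at least 50 counts).

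The members and lists were chosen with earlier results of these data known. Named beside the 9 members are, for each pathway list, the largest rise and fall among genes past the threshold, the smallest adjusted p and the highest mean CPM, with Nnmt, Mtr and Pemt always, the 3 genes most like each member with a log2 change of at least 1, and abundant markers. Marker lists covered hepatocytes, lung, Kupffer cells and macrophages, endothelium, stellate cells and fibroblasts, cholangiocytes, neutrophils, T and B cells, red blood cells, pancreas and fat. Promoter sequences are RefSeq's. Some genes that the rule or the lists hold are counted but not reported by name here.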

Additional observations from a re-analysis of the deposited data

How the results depend on the processing

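Under 12 alternatives the count of members past the threshold was 5 higher and 1 lower each time. The members were chosen with this contrast known, so this count is a description and nothing is read from it. No log2 change of a member moved by more than 1 SD between replicates. When single libraries were left out, the other pathway genes past the threshold numbered 7 to 16 higher and 6 to 14 lower, and all tested genes 671 to 1594 higher and 696 to 1393 lower; all tested genes past it numbered 818 and 823 without 16 h replicate 1, 681 and 715 without replicate 2, 671 and 696 without replicate 3, and the highest counts came without 4 h replicate 3. DESeq2 called 14 and 11 of the other pathway genes and 1372 and 1344 of all tested genes. The labels share replicate numbers between the groups but do not say that these pair the mice. Deviations of same-numbered libraries correlated at 0.061 to 0.104, which was not enough to take them as pairs, although each of the 6 libraries correlated best with its own number. For 16 h replicate 3 the margin was small, at 0.06 after rounding with both 4 h replicate 3 and 4 h replicate 1. A replicate block gave 13 and 11 other pathway genes, 1352 and 1396 of all tested genes, and the same 5 and 1 members. No call of a member or of a pathway list gene named in the text changed with the block. Depth covers counting error only, and levels per length depend on the transcript length assumed. For Ahcy and Bhmt they also depend on how reads shared with their copies were counted.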

Other observations

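Gm15622, an antisense gene that overlaps 3.25% of the exon bases of Bhmt and was picked after its values were seen, was at 27, 20 and 72 counts after 4 h and at 324, 128 and 385 counts after 16 h (2.69 ± 0.51, edgeR adjusted p = 0.0140). Those counts were 0.0481% to 0.149% of the Bhmt counts of a library after 4 h and 0.179% to 0.23% after 16 h. Without a stated strand setting, reads of Bhmt and of Gm15622 cannot be told apart where their exons overlap.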
